A study of Rattus norvegicus with 15 samples.

Results

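The genes described here encode the fibrous matrix, the basement membrane and the actin-based cytoskeleton that are typical of mesenchymal cells, together with receptors, protease inhibitors and growth factor binding proteins of the same cells. They were read from cultures of rat spermatogonial stem cells, from which sperm production is renewed. The set lists 46 genes. A gene was measured through its probe sets that carry only its symbol, was kept where a probe set reached a log2 intensity of 4 (linear 16) on 3 or more of the 15 arrays, and was represented by the kept probe set with the highest mean. By this rule 33 of the 46 genes were tested, out of 9002 named genes tested on the array. Of the rest, 12 had probe sets under this minimum and 1, Thbs1, had no probe set with its symbol alone.

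Total RNA came from Rattus norvegicus cells labelled as cultured spermatogonial stem cells and kept for 1 month without serum in the presence of GDNF (glial cell line-derived neurotrophic factor), a growth factor on which their self-renewal depends. There were 5 groups, each with 3 arrays from independent cultures. The control kept GDNF, the withdrawal group had 18 h without it, and the replacement groups had 18 h without it followed by 2, 4 or 8 h with GDNF given back. All groups shared the month of culture with GDNF. The sources used here do not give strain or animal age, and the labels name no second cell type in the cultures.

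Fibrillar collagens form the tensile fibres of connective tissue, while type IV collagen, laminin and nidogen form the sheet-like basement membrane. Fibroblasts and smooth-muscle-like cells make most of these proteins, and in the testis the peritubular myoid cells and Sertoli cells build the basement membrane on which spermatogonia rest. Tissue inhibitors of metalloproteinases (TIMPs) block the enzymes that cut this matrix, and the receptors PDGFRA and PDGFRB mark mesenchymal lineages. The arrays measured RNA of the whole culture, in which fewer cells of a type and less RNA per cell cannot be told apart.

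The defining markers were uneven. Pdgfra, Vim, Col1a1, Col1a2, Fn1 and the galectin gene Lgals1 were measured on all 15 arrays. By contrast the 12 genes below the minimum were Col6a1, Col6a2, Lum, Postn, Thbs2, Timp3, Lox, Tagln, Cnn1, Pdgfrb, Thy1 and Igfbp5, among them the myofibroblast gene Postn, the smooth muscle genes Tagln and Cnn1 and the pericyte receptor gene Pdgfrb. Thy1, which encodes a surface antigen used to enrich spermatogonial stem cells and also found on fibroblasts, was below the minimum with both of its probe sets. The smooth muscle genes Myh11, Des and Actg2, listed as further markers, were not tested for the same reason. Several usual markers of mesenchymal cells were thus not measured above the minimum, and the set is called here by its matrix genes and not by a cell type. A low reading may also lie with the probe set: of the 86 probe sets of the listed genes 41 were not tested, 17 of them in 13 genes that had another, tested probe set, and 40 of the 41 were under the minimum on every array.

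The intensity was above the minimum for 50.2% to 50.5% of probe sets on each array. With 3 arrays a group, precision is limited by their number. The labels were checked with the GDNF-dependent gene Bcl6b, whose intensity of 1588 ± 52.4 under constant GDNF compared with 163.9 ± 26.4 in the withdrawal group (SD, n = 3). Of other cell types, 0 of 9 immune markers, 0 of 7 Leydig cell markers, 2 of 8 endothelial markers and 6 of 13 Sertoli cell markers were tested, against 10 of 18 germ cell markers. Only 7 of the endothelial, 9 of the Sertoli cell and 12 of the germ cell markers had a probe set with their symbol alone. The others on these lists could not be tested.

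**Figure D1:**
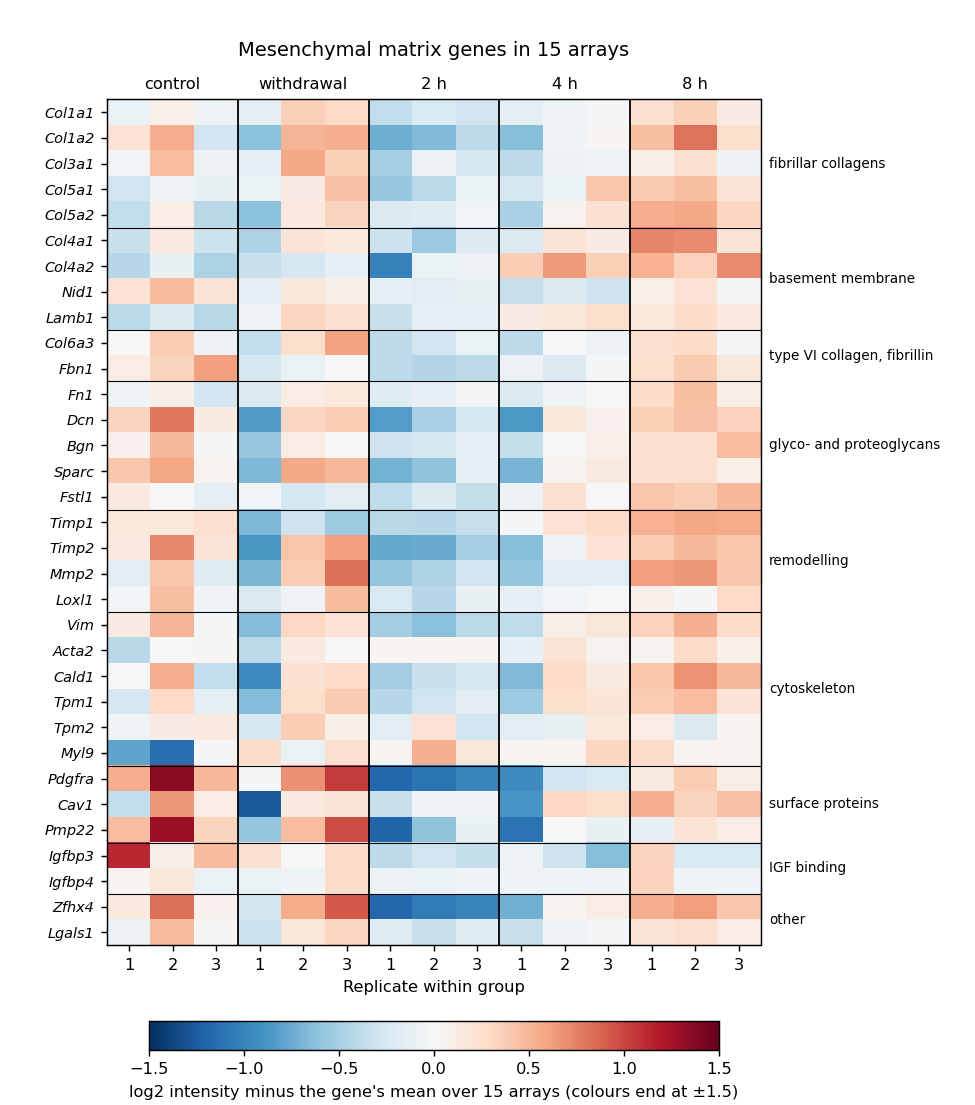
Each row is a tested gene and each column an array, with colour giving the log2 intensity minus the gene's mean over the 15 arrays. The 2 h columns are blue and the 8 h columns red for most genes, and replicate 1 of the withdrawal and 4 h groups is bluer than its partners.

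Most of the genes were at their lowest after 2 h of GDNF replacement and higher at 8 h. At 8 h 20 of the 33 genes were higher than at 2 h and 0 were lower by limma (adjusted p under 0.05), against 11.8% of all tested probe sets called higher and 14.4% called lower. The set was chosen with earlier results of these data known. The shares are thus set side by side as a description and not as separate support. The median log2 change of the 33 was 0.64, beside -0.02 over all probe sets, and 32 of the 33 values were above 0. Zfhx4, Pdgfra, Col1a2 and Timp2 rose most. Of the 20 calls 13 held under every alternative setting run. The count was 13 (39.4%) without 2 h replicate 1, where 19.3% of all were called, and also 13 without 8 h replicate 2 (19.01% of all).

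Against withdrawal, 2 h of GDNF brought 7 genes down and 0 up, beside 14.2% of all probe sets called lower and 11.9% called higher, with a median log2 change of -0.32 (-0.02 over all). At 4 h 2 were higher and 2 lower (14.6% and 16% of all), with a median of -0.12, and at 8 h 5 were higher and 0 lower (9.62% and 15.4% of all), with a median of 0.22. Withdrawal itself raised 2 genes and lowered 3 (11.4% and 9.67% of all), with a median of -0.02. At 8 h 8 genes were higher than in the control and 0 lower (4.83% and 7.49% of all), with a median of 0.18. Under every alternative setting run, 3 of the 5 calls on withdrawal held, and 2 of the 8 at 8 h against the control. Against withdrawal 4 of 7 held at 2 h, 2 of 4 at 4 h and 2 of 5 at 8 h. The losses given below for single genes are mainly those on leaving out arrays. Other settings ended some of these calls as well. Over the 5 groups together 19 of 33 differed, beside 49.6% of all probe sets. In either direction 15.2% of the genes were called on withdrawal (21.1% of all), 21.2% at 2 h (26.1%), 12.1% at 4 h (30.6%) and 15.2% at 8 h (25%) against withdrawal, 24.2% at 8 h against the control (12.3%) and 60.6% at 8 h against 2 h (26.2%). With all arrays and the low-value filter, the share of the genes was above the background in the last 2 of these and below it in the others. The 4 comparisons with withdrawal share its 3 arrays, and those at 8 h share theirs. The comparisons of 2 h with withdrawal and of 8 h with 2 h share the 2 h arrays. A low 2 h group enters both, so a fall at 2 h and a rise after it are not independent.

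Cultures of the same group differed more in these genes than in most. Over the 33 genes the median residual SD within groups was 0.279 in log2 units, beside 0.102 over all tested probe sets. All 33 were above that overall median, and 24 were above the 90th percentile. Withdrawal replicate 1 was the lowest of its group in 30 of the 33 genes (25.5% of all probe sets) and lay a median of 0.39 below the group mean on the log2 scale. The 4 h replicate 1 was the lowest in 30 (30.9% of all) and lay 0.23 below, while control replicate 2 was the highest in 26 (29.4% of all) and lay 0.31 above. The 2 h replicate 3 was also the highest in 26, where 38% of all were. The 8 h arrays lay within 0.11 of their mean. What set these arrays apart was not tested.

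**Figure D2:**
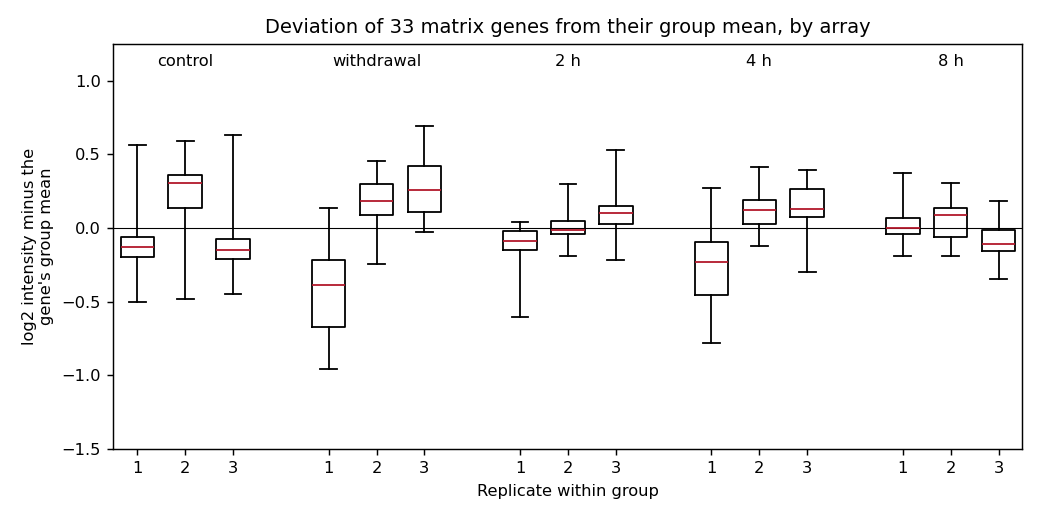
Each box shows, for an array, the log2 intensity of the 33 genes minus each gene's group mean (line, median; box, quartiles; whiskers, lowest and highest gene). Withdrawal replicate 1 has its median at -0.39 and the 4 h replicate 1 at -0.23, below the other arrays.

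The comparisons with withdrawal turn on withdrawal replicate 1. It was singled out by its low values in these same genes, so leaving it out raises the withdrawal mean of most of them. The falls given without it, here and below, show how far the calls depend on this array and are not separate support. Without withdrawal replicate 1, 19 of the 33 genes were lower at 2 h, the 7 called on all arrays among them, beside 12.2% of all probe sets. The other 12 were Col1a2, Col4a1, Col6a3, Dcn, Lgals1, Mmp2, Nid1, Pmp22, Sparc, Timp2, Tpm1 and Vim. At 4 h 12 were lower without it, among them both genes called on all arrays, beside 14% of all. The median log2 change of the 33 genes against withdrawal was then -0.50 at 2 h, -0.31 at 4 h and -0.01 at 8 h, and that of withdrawal against control was 0.16. The median of 0.22 at 8 h over withdrawal was thus not seen without this array. The 4 h median was 0.04 without withdrawal replicate 3 and 0.00 without the 4 h replicate 1. The median of 0.18 at 8 h over the control was 0.08 without control replicate 1, 0.33 without control replicate 2 and 0.07 without control replicate 3.

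Other single arrays moved the counts as well, and the share over all probe sets moved with several of them. At 2 h 4 genes (12.1%) were called without withdrawal replicate 2, withdrawal replicate 3 or 2 h replicate 1, where 17.9%, 21.7% and 19.05% of all probe sets were called. At 8 h against withdrawal the count was 3 (9.09%) without 8 h replicate 2, beside 19.1% of all. Against the control at 8 h it was 4 (12.1%) without control replicate 1, control replicate 3 or 8 h replicate 2, beside 9.39%, 8.89% and 8.73% of all. It was 5 (15.2%) there without 8 h replicate 1 or 3, beside 8.27% and 8.65% of all. Between withdrawal and control it was 3 (9.09%) without control replicate 1 or 2 or withdrawal replicate 3, beside 18.3%, 15.9% and 18.8% of all. The F test called 12 (36.4%) without 2 h replicate 1 or 2 or 8 h replicate 1, beside 43.6%, 44.3% and 46% of all, and 11 (33.3%) without 8 h replicate 2, beside 44.8%. In these 4 settings the share of the genes in the F test was below that of all probe sets, whereas on all arrays it was 57.6% against 49.6%.

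Pdgfra, the receptor for platelet-derived growth factor A chains, and Zfhx4, a zinc-finger homeodomain transcription factor gene, fell furthest at 2 h. Pdgfra had intensities of 729, 1282 and 710.5 in control replicates 1 to 3, 491, 804 and 1038 after withdrawal, 222, 234 and 253 at 2 h, 261, 408 and 429 at 4 h, and 550, 655 and 537 at 8 h. All 3 arrays at 2 h were below every other array, and the 4 h arrays lay below every array of withdrawal. The fall from withdrawal was 3.15-fold at 2 h (log2 change -1.65 ± 0.26 SE, limma adjusted p = 0.000365) and 2.08-fold at 4 h (adjusted p = 0.00618). Pdgfra then rose 2.45-fold from 2 h to 8 h (adjusted p = 0.00198). At 8 h its log2 change was -0.59 from the control and -0.36 from withdrawal, neither past the threshold (adjusted p = 0.157 and 0.338).

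Zfhx4 stood at 101, 161 and 95 in the control, 75, 134 and 172 after withdrawal, 40.2, 44 and 45.4 at 2 h, 55.5, 93.9 and 98.5 at 4 h, and 133, 140.3 and 120.4 at 8 h. Again the 2 h arrays lay below all others, here with no overlap with any group. It fell 2.78-fold from withdrawal to 2 h (log2 change -1.47 ± 0.27 SE, adjusted p = 0.00133) and rose 3.04-fold from 2 h to 8 h (adjusted p = 0.000612). Its other tested probe set fell by 0.82 on the log2 scale and rose by 0.95 in the same comparisons (adjusted p = 0.0254 and 0.0111). Pmp22, a membrane protein gene of myelin and of quiescent fibroblasts, had the widest spread of the set within groups, a residual SD of 0.565. It read 216, 380 and 197 in the control, 105, 216 and 308 after withdrawal, 68.1, 103 and 145 at 2 h, 72.7, 157 and 145 at 4 h, and 144, 180.3 and 169.9 at 8 h. It differed among the 5 groups (F test adjusted p = 0.0483) and in no pair tested on all arrays. Without withdrawal replicate 1 it fell 2.56-fold at 2 h (adjusted p = 0.0144). Cav1, which encodes the caveolar coat protein caveolin-1, ranged from 41.3 to 156 and was called in no comparison.

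**Figure D3:**
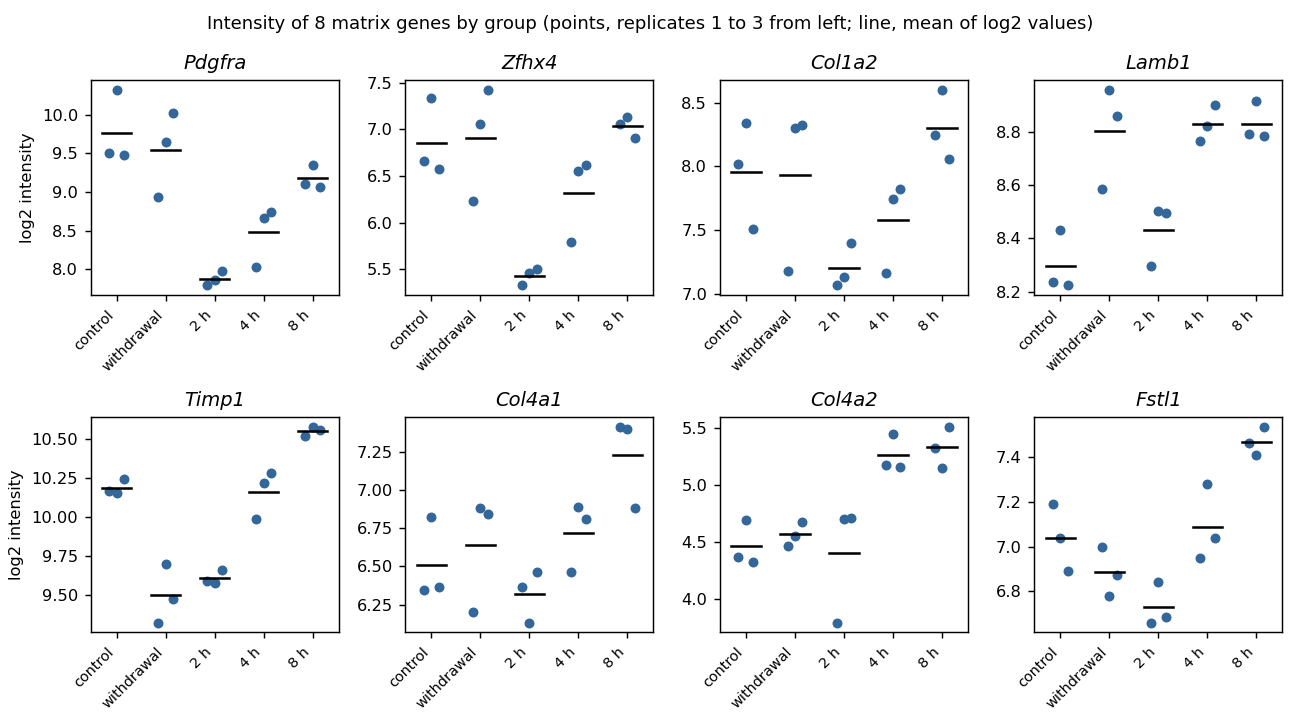
Log2 intensity of 8 genes on the 15 arrays by group, with a line at the mean of each group's log2 values. Pdgfra and Zfhx4 are lowest on all 3 arrays at 2 h, while Timp1 and Fstl1 are highest on all 3 arrays at 8 h.

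Of the 5 fibrillar collagen genes 3 were lower at 2 h than after withdrawal (14.2% of all probe sets). At 8 h 4 of them were higher than at 2 h (11.8% of all). Col1a1 and Col1a2 encode the chains of type I collagen. Col1a1 had intensities of 593, 671 and 601 in the control, 575, 809.8 and 781 after withdrawal, 491, 542 and 516 at 2 h, 575, 605 and 625 at 4 h, and 749, 811 and 689.5 at 8 h. The 2 h arrays were the lowest 3 of the 15, and the 8 h arrays lay above all control arrays. Col1a1 fell 1.38-fold from withdrawal to 2 h (adjusted p = 0.00448) and rose 1.45-fold from 2 h to 8 h (adjusted p = 0.00164). Its other probe set showed log2 changes of -0.07 and 0.01 in these comparisons (adjusted p = 0.571 and 0.924), so the change of Col1a1 rests on 1 of 2 tested probe sets.

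Col1a2 read 259, 324 and 182 in the control, 145, 315 and 320 after withdrawal, 134, 140.4 and 168 at 2 h, 143, 214 and 227 at 4 h, and 303, 389 and 266 at 8 h. It rose 2.15-fold from 2 h to 8 h (adjusted p = 0.00929), while its log2 change from withdrawal to 2 h, -0.73, was not past the threshold (adjusted p = 0.0656). Withdrawal replicate 1 lay among the 2 h values, and without it that change was -1.11 (adjusted p = 0.0037). Col5a1, whose type V chain starts collagen fibrils, fell 1.43-fold at 2 h (adjusted p = 0.0367) and rose 1.63-fold from 2 h to 8 h (adjusted p = 0.00676). The first call was lost on leaving out withdrawal 2 or 3 or 2 h 1 or 2 (0.0792 to 0.152). It was also lost without the low-value filter (0.0958) and with only the groups compared (0.0596). The other probe set of Col5a1 was at -0.33 and 0.30, neither past the threshold (adjusted p = 0.199 and 0.252). Col3a1, the chain of type III collagen, fell 1.46-fold at 2 h (adjusted p = 0.0353), a call lost without 2 h replicate 1 or 3 or withdrawal replicate 2 or 3 (0.0715 to 0.163). Dropping the low-value filter or fitting only the groups compared also ended the Col3a1 call (0.0945 and 0.0695). At 8 h its log2 change from 2 h was 0.36 (adjusted p = 0.157). Col5a2 was 1.54-fold higher at 8 h than at 2 h (adjusted p = 0.046) and 1.62-fold higher than in the control (adjusted p = 0.0468). Each of these calls was lost when any of 10 arrays was left out (adjusted p up to 0.127 and 0.149), namely control 1 and 3, withdrawal 2, 4 h 2 and all arrays at 2 h and 8 h.

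Among the basement membrane genes, Col4a1 and Col4a2 encode the α1 and α2 chains that assemble into the common form of type IV collagen. They lie head to head, and in the RefSeq promoter table their first transcribed bases are 77 bases apart on opposite strands. The stretch between the starts is shown because both genes start at its ends and both rose. It is the RefSeq sequence of build GRCr8, chr16:84885521-84885596, plus strand, 5′ to 3′ toward Col4a1, with the GC box (GGGCGG on either strand) in capitals.
Col4a1-Col4a2: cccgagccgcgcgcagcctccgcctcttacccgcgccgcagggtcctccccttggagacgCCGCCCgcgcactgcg

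Col4a1 had intensities of 81.4, 113 and 82.2 in the control, 73.7, 118 and 115 after withdrawal, 82.3, 70.1 and 88.4 at 2 h, 88.3, 118 and 112 at 4 h, and 170.3, 168 and 118 at 8 h. Col4a2, close to the minimum, read 20.7, 25.8 and 20.1 in the control, 22.2, 23.6 and 25.6 after withdrawal, 13.9, 26 and 26.2 at 2 h, 36.1, 43.5 and 35.8 at 4 h, and 40.1, 35.6 and 45.5 at 8 h. For Col4a2 the 4 h and 8 h arrays lay above all 9 others, whereas for Col4a1 only the 8 h group stood apart from the control. Col4a1 rose from 2 h to 8 h 1.88-fold and Col4a2 1.9-fold (log2 changes 0.91 ± 0.20 and 0.93 ± 0.20 SE, adjusted p = 0.00342 and 0.00329). Over withdrawal Col4a2 was 1.61-fold higher at 4 h (adjusted p = 0.0162) and 1.69-fold at 8 h (adjusted p = 0.0114), and Col4a1 1.5-fold at 8 h (adjusted p = 0.0401). Over the control at 8 h they were 1.82- and 1.65-fold higher (adjusted p = 0.0103 and 0.0266). The other probe set of Col4a1 rose by 0.98 from 2 h to 8 h, by 0.83 from withdrawal and by 0.89 from the control on the log2 scale.

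The Col4a1 call against withdrawal at 8 h was lost without 2 h replicate 1, 8 h replicate 1 or 2 or withdrawal replicate 1 (adjusted p = 0.051 to 0.184). Its call against the control was lost without control replicate 1 or 3 or 8 h replicate 1 or 2 (0.093 to 0.101). That call was also lost without the low-value filter (0.0754) and with only the groups compared (0.0577). The Col4a2 calls against withdrawal were lost without 4 h replicate 2 (0.0674) at 4 h and without 8 h replicate 3 (0.0507) at 8 h. Both were also lost without replicate 1 of control, withdrawal and 4 h together (0.0787 at 4 h and 0.0569 at 8 h). The Col4a2 call against the control was lost in that setting as well (0.0524).

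Lamb1, the laminin β1 chain gene, was the basement membrane gene called higher on withdrawal. It read 301, 345 and 299 in the control, 384, 498 and 465 after withdrawal, 314, 362 and 360.4 at 2 h, 435, 452 and 478 at 4 h, and 443, 483 and 440.4 at 8 h. Every array of withdrawal, 4 h and 8 h was above every array of the control and of 2 h. Lamb1 rose 1.42-fold on withdrawal (adjusted p = 0.00122), fell 1.29-fold at 2 h (adjusted p = 0.00858) and rose 1.32-fold from 2 h to 8 h (adjusted p = 0.00522), when it was 1.45-fold above the control (adjusted p = 0.00158). These 4 calls held under every alternative run. Nid1, which encodes the linker nidogen-1, fell 1.26-fold from withdrawal to 4 h (adjusted p = 0.00737), with 1187, 1466 and 1403 after withdrawal against 1024, 1120 and 1055 at 4 h. Its other probe set was at 0.01 there (adjusted p = 0.952), and the mean of both probe sets missed the threshold (adjusted p = 0.0501). Its fall on withdrawal, 1.19-fold (adjusted p = 0.0496), was lost when any of 11 arrays was left out (0.0514 to 0.217). These were control 1 and 2, withdrawal 1 and 3, 8 h 1 and all arrays at 2 h and 4 h. The other probe set of Nid1 fell by 0.29 on the log2 scale on withdrawal (adjusted p = 0.0107). At 8 h it was at -0.25 against the control (adjusted p = 0.0367), where the one used for Nid1 was not called (adjusted p = 0.145).

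Fbn1 encodes fibrillin-1, the core of the microfibrils that carry elastin and store TGF-beta. It had intensities of 825, 964 and 1172 in the control, 647, 713 and 761 after withdrawal, 583, 562 and 584 at 2 h, 718, 663 and 749 at 4 h, and 920, 1006 and 863 at 8 h. The control and 8 h arrays overlapped with each other and lay above all others, and the 2 h arrays lay below all others. Fbn1 fell 1.38-fold on withdrawal (adjusted p = 0.00396), and rose 1.31-fold from withdrawal to 8 h (adjusted p = 0.01) and 1.61-fold from 2 h to 8 h (log2 change 0.69 ± 0.10 SE, adjusted p = 0.000193). Its other probe set changed in the same directions, at -0.50, 0.31 and 0.62. The smaller fall from withdrawal to 2 h, 1.22-fold (adjusted p = 0.0453), was lost when any of 9 arrays was left out (0.0515 to 0.15), namely control 2, withdrawal 2 and 3, 4 h 1 and 3, 8 h 1 and all arrays at 2 h. Centring each array on its median also ended it (adjusted p = 0.0623), while the other probe set was at -0.32 (adjusted p = 0.0363). The rise at 8 h over withdrawal was lost without 8 h replicate 2 (0.0503). Col6a3, the type VI collagen chain gene, was called in no comparison on all arrays and ranged from 126 to 251. Without withdrawal replicate 1 it fell 1.62-fold at 2 h (adjusted p = 0.00645).

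Of the glycoprotein and proteoglycan genes 4 of 5 were higher at 8 h than at 2 h (11.8% of all probe sets). Fstl1, a secreted follistatin-like glycoprotein gene, had intensities of 146, 131 and 119 in the control, 128, 109.9 and 117 after withdrawal, 101, 115 and 103 at 2 h, 124, 156 and 131 at 4 h, and 176, 169.9 and 185 at 8 h. The 8 h arrays were the 3 highest of the 15. Fstl1 rose 1.5-fold from withdrawal (adjusted p = 0.000701), 1.67-fold from 2 h (adjusted p = 0.000108) and 1.35-fold from the control (adjusted p = 0.0126). The last call was lost without control replicate 3 or 8 h replicate 3 (0.0591 and 0.0502). Of its other probe sets, 1 rose at 8 h in all 3 comparisons, by 0.49, 0.43 and 0.47. It also rose by 0.45 from withdrawal to 4 h (adjusted p = 0.00387), where the one used for Fstl1 was not called (adjusted p = 0.146). The remaining probe set rose only from 2 h to 8 h, by 0.52 (adjusted p = 0.025). Its log2 values of 0.24 over withdrawal and over the control missed the threshold (adjusted p = 0.292 and 0.364).

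Fn1, the fibronectin gene, read 379, 393 and 423 at 2 h and 521, 584 and 456 at 8 h, a 1.3-fold rise (adjusted p = 0.0226). Dcn and Bgn encode decorin and biglycan, small proteoglycans that bind collagen. They rose 1.87- and 1.46-fold from 2 h to 8 h (adjusted p = 0.0392 and 0.0275). For Dcn the values were 242, 332 and 211 in the control, 106, 240 and 248 after withdrawal, 107, 137 and 161 at 2 h, 106, 216 and 201 at 4 h, and 246, 259 and 244 at 8 h, with replicate 1 of withdrawal and of 4 h at the level of the lowest 2 h array. Leaving out 2 h replicate 1 or 2 or 8 h replicate 2 ended all 3 of these calls, 8 h replicate 1 those of Fn1 and Dcn, and 8 h replicate 3 those of Dcn and Bgn (adjusted p = 0.0539 to 0.143). Without the low-value filter all 3 were lost too (0.0621 for Fn1, 0.112 for Dcn and 0.0745 for Bgn). Dcn was also lost without the intensity trend (0.0584). Fn1 was 1.28-fold above the control at 8 h with overlapping groups (adjusted p = 0.0498). That call was lost without any of 11 arrays (up to 0.192): control 1 and 3, withdrawal 2, 8 h 1 and 2 and all arrays at 2 h and 4 h. Sparc, which encodes osteonectin, read 99.4, 236 and 225 after withdrawal and 97.2, 105 and 145 at 2 h, with no call on all arrays. Without withdrawal replicate 1 its fall was 2.02-fold (adjusted p = 0.00532).

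Timp1, an inhibitor of matrix metalloproteinases and a gene known to be induced by AP-1 transcription factors, had the smallest residual SD of the set, 0.114. Its intensities were 1149, 1142 and 1216 in the control, 641, 829.8 and 711 after withdrawal, 771, 764 and 808 at 2 h, 1016, 1194 and 1247 at 4 h, and 1467, 1531 and 1507 at 8 h. The 8 h arrays were the 3 highest, the control and 4 h arrays lay together below them, and the withdrawal and 2 h arrays lay lowest. Timp1 fell 1.62-fold on withdrawal (log2 change -0.69 ± 0.08 SE, adjusted p = 3.21e-05). It was at 0.11 at 2 h (adjusted p = 0.351), and rose over withdrawal 1.59-fold at 4 h (adjusted p = 2.7e-05) and 2.08-fold at 8 h (adjusted p = 3.87e-07). At 8 h it was 1.92-fold above 2 h (adjusted p = 1.58e-06) and 1.28-fold above the control (adjusted p = 0.0102). These 5 calls held under every alternative run.

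The Timp1 promoter is shown for an AP-1-like element. The 250 bases before the gene's start come from RefSeq, build GRCr8, chrX:3771123-3771372, minus strand, with TGAGTAA in capitals, its first base at -108 from the start.
Timp1: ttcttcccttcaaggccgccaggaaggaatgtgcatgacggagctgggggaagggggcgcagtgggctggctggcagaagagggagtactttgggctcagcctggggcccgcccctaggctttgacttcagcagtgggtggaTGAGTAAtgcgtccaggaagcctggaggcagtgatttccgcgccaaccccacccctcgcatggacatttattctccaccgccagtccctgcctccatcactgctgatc

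Promoter windows, from 250 bases before to 50 after a start, were found for 24 of the 33 genes. On either strand TGAGTAA occurred in 1 of the 24, Timp1, and in 2.9% of all 33469 windows. The GC box GGGCGG occurred in 13 of the 24 and in 33.1% of all windows, and CCAAT in 9 of the 24 and in 37.5% of all windows. A gene was counted if any of its windows held the letters, whereas the share of all is of single windows, so these shares are not like for like. These letter matches are a description of the windows.

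Timp2 and Mmp2 encode an inhibitor and the gelatinase it helps to activate at the cell surface, and their values moved alike. Timp2 read 702, 1047 and 737 in the control, 348, 847 and 978 after withdrawal, 375, 377 and 452 at 2 h, 410.3, 604 and 739 at 4 h, and 826, 892 and 847 at 8 h. Mmp2 read 60.5, 90.3 and 59.5, then 42.1, 88.3 and 121, then 45.4, 49.1 and 55, then 45.5, 60.5 and 60, and 105, 106 and 89.4 in the same order of groups. In both genes withdrawal replicate 1 and 4 h replicate 1 lay at or below the level of the 2 h arrays. Timp2 rose 2.14-fold from 2 h to 8 h (adjusted p = 0.0136) and Mmp2 2.01-fold (adjusted p = 0.0156), with Mmp2 lost without 2 h replicate 1 or 8 h replicate 2 (0.0556 and 0.0524). Against withdrawal at 2 h they stood at log2 changes of -0.72 and -0.62, which missed the threshold (adjusted p = 0.086 and 0.116). Without withdrawal replicate 1 they were -1.19 and -1.05 (adjusted p = 0.00095 and 0.00161). Loxl1, a lysyl oxidase family gene whose product crosslinks elastin, was called in no comparison and ranged from 52.9 to 98.5.

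**Figure D4:**
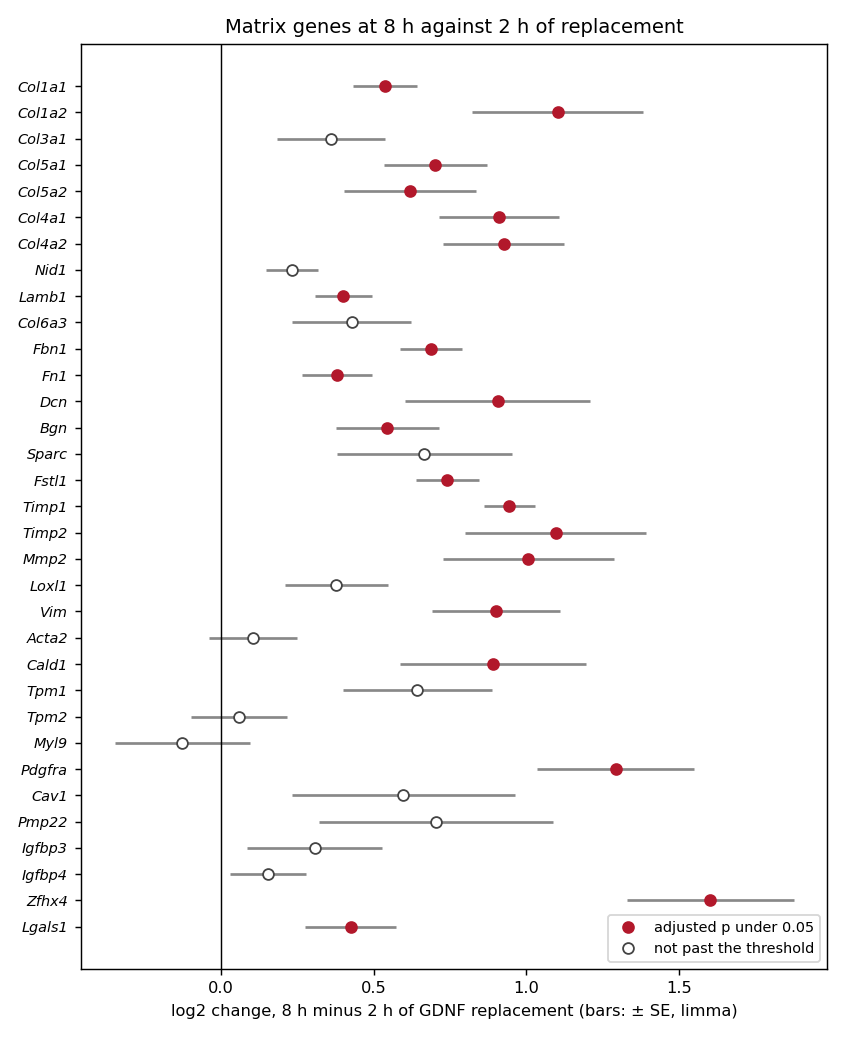
Log2 change from 2 h to 8 h of GDNF replacement for the 33 genes in the order of their roles, with bars of ± SE from limma. Filled points mark the 20 genes past the threshold, all to the right of 0, and only Myl9 lies to the left.

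Among the cytoskeletal genes, the intermediate filament gene Vim rose 1.87-fold from 2 h to 8 h (log2 change 0.90 ± 0.21 SE, adjusted p = 0.0056). It read 1381, 1812 and 1251 in the control, 809.6, 1579 and 1475 after withdrawal, 882, 824 and 961 at 2 h, 974, 1360 and 1437 at 4 h, and 1618, 1832 and 1534 at 8 h. Withdrawal replicate 1 was below all 2 h arrays, and the 8 h arrays were above all of them. Cald1, which encodes the actin-binding protein caldesmon, rose 1.85-fold (adjusted p = 0.0428), a call lost without control 1 or any array at 2 h or 8 h (0.0513 to 0.124). Its other probe set rose by 0.67 (adjusted p = 0.0249). From withdrawal to 8 h that probe set rose by 0.77 (adjusted p = 0.0126), where the one used for Cald1 was not called (adjusted p = 0.125).

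The smooth muscle actin gene Acta2 stayed between 69.8 and 114 on all 15 arrays and was called in no comparison, and the tropomyosin gene Tpm2 between 102 and 162 likewise. For the tropomyosin gene Tpm1 the log2 change from 2 h to 8 h was 0.64 (adjusted p = 0.0647). Of its 3 other tested probe sets 1 rose, by 0.41 (adjusted p = 0.00432), and 2 were not past the threshold, at 0.20 and 0.16. The one that rose was also called from withdrawal to 2 h, at -0.33 (adjusted p = 0.0172). There the probe set used for Tpm1 was not called (adjusted p = 0.406). Myl9, a myosin light chain gene, had intensities of 9.83, 7.79 and 16.9 in the control and 15.8 to 24.7 on the other arrays, around the minimum of 16. It was called higher after withdrawal and at 8 h than in the control (adjusted p = 0.0201 and 0.0337). Raising all values below 16 to 16 ended both calls (adjusted p = 0.304 and 0.411). The first was also lost without control 1 or 2 or withdrawal 1 or 3 (0.0606 to 0.0984), and the second without control 1 or 2 or any array at 8 h (0.0662 to 0.133).

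Lgals1, the gene of the secreted lectin galectin-1, had intensities of 8304, 12254 and 8912 in the control, 7053, 9934 and 10978 after withdrawal, 7681, 7015 and 7754 at 2 h, 6946, 8532 and 8653 at 4 h, and 10091, 10527 and 9501 at 8 h. Its 1.34-fold rise from 2 h to 8 h (adjusted p = 0.0491) was lost when any of 10 arrays was left out (0.0557 to 0.142), namely control 3, withdrawal 2, 4 h 2 and 3 and all arrays at 2 h and 8 h. Igfbp3 and Igfbp4 encode secreted proteins that bind insulin-like growth factors. Igfbp3 read 94.1, 45.9 and 59.8 in the control and between 32.7 and 34.9 at 2 h. It differed over the 5 groups (F test adjusted p = 0.0124), with none of the 6 pairs tested past the threshold. The pairs tested did not include 2 h or 4 h against the control. Control replicate 1 held the highest value of Igfbp3. Igfbp4 ranged from 28.2 to 38.2 and was called in no comparison.

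Other matrix genes came from a list outside the set. The counts of this and the later lists stand beside these shares of all probe sets called higher and lower. They were 11.4% and 9.67% on withdrawal, and 11.9% and 14.2% at 2 h against withdrawal. At 4 h and 8 h against withdrawal they were 14.6% and 16%, and 9.62% and 15.4%. At 8 h they were 4.83% and 7.49% against the control, and 11.8% and 14.4% against 2 h. Of 14 tested of 43 listed, 5 were higher and 1 lower at 8 h than at 2 h, with a median log2 change of 0.28. Lamc1, the laminin γ1 chain gene, rose 1.4-fold (adjusted p = 0.000636), Nid2 1.21-fold (adjusted p = 0.000873) and Efemp2, a fibulin gene, 1.22-fold (adjusted p = 0.0061). On withdrawal 1 rose, Lama5 by 1.55-fold (adjusted p = 0.000126), and 2 fell, Efemp2 by 1.47-fold and Lamc1 by 1.32-fold (adjusted p = 3.6e-05 and 0.0031). The counts were 0 higher and 2 lower at 2 h, 1 and 2 at 4 h, and 3 and 3 at 8 h against withdrawal, and 1 and 3 at 8 h against the control.

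Enzymes and chaperones that make collagen were listed apart. Of 13 tested of 18 listed, 4 rose and 0 fell on withdrawal, the lysyl hydroxylase gene Plod3 by 1.22-fold (adjusted p = 0.00267), the prolyl hydroxylase gene P4ha1 by 1.32-fold (adjusted p = 0.0151) and the collagen chaperone gene Serpinh1 by 1.3-fold (adjusted p = 0.0163) among them. After GDNF return 0 were higher and 4, 6 and 5 were lower than withdrawal at 2, 4 and 8 h. Serpinh1 was 1.35-fold lower at 8 h (adjusted p = 0.0063) and Colgalt1, a collagen galactosyltransferase gene, 1.32-fold lower (adjusted p = 0.000387). From 2 h to 8 h 1 rose and 2 fell, with a median of -0.01, and at 8 h against the control the counts were 1 and 1.

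Further genes of the contractile apparatus, 9 tested of 14, form another list. Of them 3 rose and 0 fell from withdrawal to 2 h, namely Srf, the transcription factor gene of actin cytoskeleton genes, by 1.75-fold, the focal adhesion gene Vcl by 1.77-fold and Tpm4 by 1.54-fold (adjusted p = 1.9e-06, 8e-06 and 3.56e-05). From 2 h to 8 h 4 rose and 5 fell, Srf by 1.7-fold and Vcl by 1.69-fold downward (adjusted p = 2.55e-06 and 1.39e-05). The counts higher and lower were 0 and 2 on withdrawal, 4 and 1 at 4 h and 3 and 1 at 8 h against withdrawal, and 3 and 2 at 8 h against the control.

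Mesenchymal regulators and surface markers were tested for 5 of 15 listed genes. From 2 h to 8 h the nuclear receptor genes Nr2f2 and Nr2f1 rose 2.57- and 2.4-fold and S100a4 rose 2.02-fold (adjusted p = 0.000732, 0.00106 and 0.0198), with 0 lower. From withdrawal to 2 h Nr2f1 fell 2.4-fold and Nr2f2 1.64-fold (adjusted p = 0.0012 and 0.0383), whereas Twist1 rose 1.51-fold (adjusted p = 0.00483). The mean log2 intensity of the 5 per array ranged from 7.33 to 7.57 at 2 h and from 8.07 to 8.23 at 8 h. It ranged from 7.74 to 8.09 in the control, 7.44 to 8.27 after withdrawal and 7.52 to 7.98 at 4 h. That of the 33 matrix genes ranged from 7.30 to 7.53 at 2 h and from 7.99 to 8.12 at 8 h. Their control range was 7.76 to 8.11, that of withdrawal 7.38 to 8.09 and that of 4 h 7.41 to 7.83.

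Of the 10 tested germ cell markers, 4 were higher and 2 lower at 8 h than at 2 h (11.8% and 14.4% of all probe sets). Their median log2 change was 0.01, and their mean per array ranged from 9.93 to 9.98 at 2 h and from 10.02 to 10.10 at 8 h. This list includes Bcl6b, used above as a GDNF-dependent gene, whose intensity averaged 399.9 at 2 h and 643.4 at 8 h. Of the 6 tested Sertoli cell markers 1 rose and 1 fell, with a mean from 6.69 to 6.72 at 2 h and from 6.66 to 6.77 at 8 h. The array's RNA quality probe sets gave unlike pictures for 2 h and 8 h. For GAPDH the 3′ control probe set minus the 5′ one ranged in log2 from -0.27 to -0.25 at 2 h and from -0.17 to -0.13 at 8 h, with no overlap. For hexokinase the difference averaged 2.24 ± 0.11 and 2.34 ± 0.15, and for beta-actin 2.04 ± 0.08 and 2.06 ± 0.09 (SD, n = 3), and both pairs of groups overlapped. The part of cell makeup or RNA quality in the course of the matrix genes was not tested.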

How the data were processed

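Gene expression was measured on 15 single-colour arrays of rat cells, 3 in each of 5 groups taken from the sample titles. The authors deposited probe set intensities on a linear scale, read as linear from their range. GCRMA and Partek 6.3 are the tools listed per the submitters' processing notes, which here give neither their roles nor their order. GCRMA in general subtracts background by probe sequence, so values near the minimum depend on it. Intensities were taken to log2. Leaving aside 57 control probe sets, 15856 (51.1%) passed the minimum of log2 4 on 3 arrays. Symbols came from the platform annotation (20832 probe sets with 1 symbol, 436 with several, 9831 with none), and list genes outside the set were updated by gene identifier (20764 matched). The model was fitted to all 15 arrays with limma 3.58.1 (R 4.3.3; lmFit, and eBayes with an intensity trend), and each SE is limma's. P-values are two-sided, adjusted by Benjamini-Hochberg over all probe sets, with a threshold of 0.05. A further probe set of a named gene is given where it bears on a call.

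The members and lists were chosen with earlier results of these data known. All tested members may be named, and up to 3 called genes of each other list per comparison by smallest adjusted p, with their values elsewhere. The limma comparisons were first checked on simulated arrays with known changes and independent noise for each probe set. Those arrays held no shifts shared by many genes of an array. The filter, probe set choice, motif search and alternative settings were not part of that check. Alternatives were other filters, normalizations, variance models, probe set choices, the replicate number as a block and arrays left out.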

Additional observations from a re-analysis of the deposited data

How the results depend on the processing

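The number of matrix genes called moved by over 1.5 times under these settings. Without the low-value filter it was 3 for withdrawal against control (9.09% of the genes, 8.58% of all probe sets), 4 at 2 h against withdrawal (12.1%, 10.3% of all), 4 at 8 h against control (12.1%, 4.68% of all), 13 at 8 h against 2 h (39.4%, 10.8% of all) and 11 in the F test (33.3%, 21.1% of all). On withdrawal, at 2 h and at 8 h against withdrawal (12.1%, 10.5% of all) the share of the genes was then above that of all, where it was below it with the filter. With array weights the count was 3 for withdrawal against control (21.2% of all) and 16 at 2 h (48.5%, 33.1% of all), and with only the groups compared 3 for withdrawal against control (13.7% of all). Leaving out replicate 1 of control, withdrawal and 4 h together gave 20 at 2 h (60.6%, 25.2% of all) and 11 at 4 h (33.3%, 25.4% of all) against withdrawal. At 8 h against 2 h it gave 25 (75.8%, 27.9% of all). Over all probe sets, fitting only the groups compared lowered the calls from 3342 to 2166 for withdrawal against control and from 1953 to 1241 for 8 h against control; the F test was not run in that setting. Leaving out single arrays gave 3 to 5 for withdrawal against control (15.6% to 22.3% of all). Against withdrawal it gave 4 to 19 at 2 h (17.9% to 27.2% of all) and 3 to 14 at 4 h (24.2% to 31.4% of all). At 8 h it gave 3 to 6 against withdrawal (19.1% to 26% of all) and 4 to 9 against control (8.27% to 12.9% of all). It gave 13 to 24 at 8 h against 2 h (19% to 27% of all) and 11 to 28 in the F test (43.4% to 49.4% of all). No called change of a matrix gene reversed in any setting; the cause of these shifts was not tested. The labels name no pairing of same-numbered arrays, and whether they share a source was not tested. Of 30 such pairs 8 correlated above 0.1 in their deviations from group means, with correlations from -0.14 to 0.39. With the replicate block 11 genes were called at 2 h (33.3%, 27.1% of all) and 7 at 4 h (21.2%, 31.8% of all) against withdrawal. The F test with the block called 25 (75.8%, 51.2% of all). Genes near an intensity of 16, such as Col4a2 and Myl9, are limited by signal over background.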

Other observations

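Genes that cut the matrix or bind cells to it were measured outside the comparisons above. Their counts stand beside the same shares of all probe sets as those of the other lists outside the set. Of 7 tested proteases and their regulators, Mmp14, which encodes the membrane enzyme that activates the gelatinase MMP2, rose 1.57-fold from 2 h to 8 h (limma adjusted p = 9.03e-06), and the gelatinase gene Mmp9 rose 2.11-fold (adjusted p = 0.000561). Reck, which encodes an inhibitor of both, was 1.16-fold lower (adjusted p = 0.0091), and in all 2 rose and 2 fell. On withdrawal 1 rose and 3 fell, with Mmp9 2.85-fold lower (adjusted p = 3.27e-05). Against withdrawal the counts higher and lower were 1 and 2 at 2 h, 3 and 2 at 4 h and 3 and 1 at 8 h, and against the control at 8 h they were 0 and 1.

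Of 13 tested matrix receptors 1 rose and 5 fell on withdrawal. The collagen receptor kinase gene Ddr1 fell 3.46-fold, the laminin receptor subunit gene Itga6, a known marker of spermatogonial stem cells, 1.33-fold and the integrin β1 gene Itgb1 1.32-fold (adjusted p = 7.91e-07, 0.000448 and 0.000512). After GDNF return Itgb1 was 1.31-, 1.67- and 1.65-fold above withdrawal at 2, 4 and 8 h (adjusted p = 0.000652, 9.13e-07 and 1.75e-06). At 2 h 7 of the 33 matrix genes were lower and 0 higher, beside 14.2% and 11.9% of all probe sets. From 2 h to 8 h 4 receptors rose and 0 fell, Itgb5 1.36-fold and Itgav, of the integrins that bind fibronectin, 1.65-fold (adjusted p = 0.000986 and 0.00315). Of the 2 tested endothelial markers Kdr fell 2.84-fold on withdrawal (adjusted p = 8.12e-08) and Pecam1 was not called. The mean log2 intensity of the 2 was 4.91 in the control and 4.26 after withdrawal, close to the minimum of 4, so the fold is limited by signal over background.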
